A study of Mus musculus with 24 samples.

Results

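This report describes 315 probe sets that were low at 8 h but not at 4 h of the drug in cells with a drug-activated PERK kinase. At 4 h these probe sets ran from near the untreated level to well above it. They were selected on the deposited values of 6 arrays, those of the eIF2 alpha SS line that expresses Fv2E-PERK, out of 12422 probe sets that are not hybridisation controls. All 6 values had to lie above 0.1, which 11681 probe sets met. The mean of the 8 h values had to be at most 0.6 times the untreated mean, the mean of the 4 h values over 0.8 times it, and both 8 h values below both untreated values. The members made up 2.7% of the 11681 eligible probe sets. Of the members 271 had exactly 1 gene symbol and stood for 263 genes, 12 had several symbols and 32 had none.

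Messenger RNA of mouse fibroblast cell lines was measured on 24 oligonucleotide arrays in 12 groups of 2 arrays. One experiment left wild-type, ATF4-/- and PERK-/- cells untreated or gave them 2 ug/ml tunicamycin, which causes stress in the endoplasmic reticulum (ER) by blocking N-linked glycosylation. The treatment lasted 6 h in wild-type and ATF4-/- cells, and the labels give no duration for PERK-/- cells. The other cells expressed Fv2E-PERK, a chimera whose kinase is switched on by the dimerizer AP20187 with no stressor, and were untreated or treated for 4 h or 8 h at a dose written as 2 nm. The SS line has wild-type eIF2 alpha in a PERK-/- background. The AA line has mutant eIF2 alpha, and its PERK status and transgene level are not stated. Whether a line is 1 clone, and whether arrays of the same group stand for different cultures, is not stated either. The p-values here rest on the scatter within these pairs of samples, and that scatter may be technical.

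Each deposited value is relative to the median of that probe set across the series, on a linear scale, so a level cannot be set against that of another gene. Array medians ran from 0.717 to 0.855 in the tunicamycin experiment and from 1.1 to 1.22 in the Fv2E-PERK experiment, and levels were not compared between these sets. No value lies below 0.01, and a value of 0.01 is referred to as the floor. The members were at the floor more often than other probe sets: 135 of the 315 (42.9%) were never at the floor on the tunicamycin arrays, 132 (41.9%) on some of them and 48 (15.2%) on all 12, against 59.1%, 29.5% and 11.4% of the eligible probe sets. The members' values were also less repeatable, with a median absolute log2 difference between the 2 untreated AA arrays of 0.39 against 0.28 over the eligible probe sets, and of 0.69 against 0.40 between the AA arrays at 8 h. As a check of the cell type, all 12 fibroblast marker genes looked for had probe sets. Their 19 ratios summed to 23.0 and 23.9 on the untreated SS arrays, 11.6 and 12.1 at 4 h and 9.42 and 9.86 at 8 h. On the untreated AA arrays they summed to 23.4 and 26.8. The 7 epithelial marker ratios summed to 67.5 and 123 on the untreated SS arrays, against 18.1 and 18.3 on the untreated AA arrays. In treated SS cells these epithelial sums were 109 and 124 at 4 h and 76.4 and 109 at 8 h. Relative values cannot show that a marker is present. In bulk RNA, the number of cells of a type and the RNA per cell cannot be told apart. The part of these differences in the results was not tested.

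PERK is a kinase of the ER membrane that senses misfolded protein and phosphorylates eIF2alpha, a subunit of the factor that brings the initiator tRNA to the ribosome. Phosphorylation slows most translation and favours that of ATF4, a transcription factor that raises amino acid and redox genes, and this common pathway is called the integrated stress response. In the AA mutant the phosphorylated serine is replaced by alanine. Programs for which fibroblasts are known include SRF and YAP, which couple actin tension and cell density to transcription of genes such as Ccn1 and Ccn2, the receptors and ligands by which fibroblasts exchange growth signals, and the NF-kappaB-driven inflammatory genes.

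The promoters of 3 members with an actin-related role are printed, since these genes recur in the results and since binding sites of SRF and of the YAP partner TEAD are known for such genes. They show the 250 bases upstream of the RefSeq start in build GRCm38.p6, written 5′ to 3′ on the gene's strand, with capitals for matches to GGAATG, the TEAD consensus, on either strand and to the CArG box bound by SRF.
Ccn1, chr3:145649986-145650235, minus strand: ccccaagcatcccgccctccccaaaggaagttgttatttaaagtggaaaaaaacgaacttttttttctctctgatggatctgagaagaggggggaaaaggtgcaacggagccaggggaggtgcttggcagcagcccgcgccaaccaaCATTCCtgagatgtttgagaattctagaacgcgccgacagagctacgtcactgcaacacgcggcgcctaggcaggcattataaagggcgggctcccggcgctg
Vcl, chr14:20929148-20929397, plus strand: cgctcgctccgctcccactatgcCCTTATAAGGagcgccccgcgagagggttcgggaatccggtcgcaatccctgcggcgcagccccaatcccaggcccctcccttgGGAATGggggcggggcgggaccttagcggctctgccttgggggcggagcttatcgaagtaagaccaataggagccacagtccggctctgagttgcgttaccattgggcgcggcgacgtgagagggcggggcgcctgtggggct
Myl9, chr2:156775214-156775463, plus strand: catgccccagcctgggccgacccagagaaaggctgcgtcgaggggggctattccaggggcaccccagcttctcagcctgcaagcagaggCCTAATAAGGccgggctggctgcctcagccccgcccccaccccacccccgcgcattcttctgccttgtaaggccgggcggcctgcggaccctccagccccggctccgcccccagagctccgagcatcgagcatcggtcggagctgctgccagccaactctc

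In Ccn1 a GGAATG match on the opposite strand begins 103 bases before the start. Vcl has GGAATG at 143 and a CArG box at 227 bases before it, and Myl9 a CArG box at 161. RefSeq promoters were found for 203 member genes and for 6572 genes on the array. GGAATG was in 12.3% of the member promoters and 10.9% of all. The CArG box was in 7 of the 203 (3.45%) and 94 of the 6572 (1.43%). The AP-1 site TGANTCA was in 7.39% against 5.45%, TATAAA in 12.3% against 9.33%, CCAAT in 33.5% against 35.8% and GGGCGG in 49.8% against 54.8%. The E-box CACGTG was in 8.87% against 8.43%, the CRE site TGACGTCA in 2.46% against 2.43%, the CHOP and ATF4 composite site TGATGNAA in 2.46% against 2.16%, and the E2F site TTTGGCGC in 0.985% against 0.852%. These matches, searched on both strands and allowed to overlap, describe letters in a window and not binding.

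The values that chose the members describe the SS line without a test. The ratio of the 8 h mean to the untreated mean had a median of 0.494 over the 315 members, with quartiles of 0.397 and 0.554, a lowest value of 0.109 and a highest of 0.599. It was at most 0.5 in 161 members and at most 0.25 in 11. The 4 h ratio ran from 0.80 to 9.86, with a median of 1.0 and quartiles of 0.874 and 1.19. In 243 members the 4 h and untreated arrays overlapped, in 42 (13.3%) both 4 h arrays were above both untreated ones and in 30 both were below. Over all eligible probe sets both 4 h arrays were above in 25.1%, and the other shares were not counted there. The rule itself removed 4 h means at or under 0.8 times the untreated mean. The members' untreated SS arrays also differed more, with a median absolute log2 difference of 0.46 against 0.36 over the eligible probe sets. Among the eligible probe sets 1174 met the requirements at 8 h, and 859 of these were already at or under 0.8 at 4 h, which left the 315 members, 26.8% of them.

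**Figure D1:**
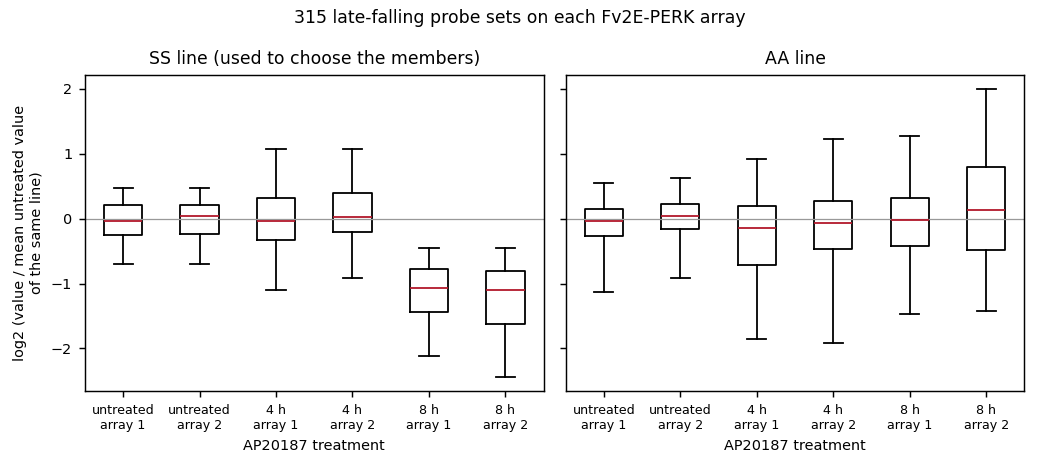
Box plots of log2 of each member's value over its own untreated mean, for the 6 SS and the 6 AA arrays (n = 315 probe sets a box; line: median, box: quartiles, whiskers: 5th and 95th percentiles). The SS boxes drop at 8 h because the members were chosen for it; the AA boxes stay around 0 and are widest on the second 8 h array.

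Members close to the thresholds differed little from their neighbours outside. Selp, Tbl1xr1 and Acvr1 had 8 h ratios of 0.599, 0.598 and 0.597, and Tns2, Srcap and a second Arf3 probe set, at 0.601 each, were left out. Timp3, Gast and Angpt2 had 4 h ratios of 0.8001, 0.801 and 0.801, against 0.7999, 0.799 and 0.799 for Anp32e, Igkv1-133 and Abca2, which were left out.

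Of 16 gene lists, the actin, SRF and YAP list held the highest share of members: 6 of its 43 eligible probe sets (14%), against 2.7% of all. Another 6 of the 43 were already low at 4 h. The median log2 ratio of the whole list at 8 h was -0.19, against 0.05 over the eligible probe sets. The members were Ccn2, Ccn1, 2 Vcl probe sets, Myl9 and Amotl2. The lists were chosen with earlier results of these data known, so this and the following list shares are descriptions only.

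Ccn2 encodes the matricellular protein CTGF, a standard YAP target. Its SS ratios were 1.18 and 1.25 before treatment, 0.986 and 0.991 after 4 h, then 0.202 and 0.144 after 8 h. Both 8 h values were far below all the others, and the 8 h mean was 0.143 of the untreated one. In the AA line Ccn2 read 0.907 and 1.01 before treatment, 1.03 and 0.782 after 4 h, then 1.01 and 0.621 after 8 h. The AA groups overlapped, and the change at 8 h was -0.21 ± 0.24 (log2 of ratio + 0.247, SE; limma adjusted p = 0.904).

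Ccn1 encodes the related protein CYR61, also a YAP and SRF target. It read 2.24 and 2.17 in untreated SS cells, 2.00 and 2.17 at 4 h and 0.599 and 0.391 at 8 h. The 4 h values lay at the untreated level and the 8 h values apart from both. In AA cells the ratios were 0.803 and 0.908 before treatment, 1.05 and 0.914 after 4 h, then 0.950 and 0.631 after 8 h, with overlap between untreated and 8 h arrays.

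Vcl encodes vinculin, which ties focal adhesions to actin filaments, and was 1 of 8 genes with more than 1 member probe set. One of its probe sets read 1.05 and 1.53 before treatment, 1.44 and 1.91 after 4 h, then 0.301 and 0.259 after 8 h in SS cells. The other read 1.16 and 1.66, then 1.52 and 1.61, then 0.730 and 0.832. Both gave the same order of groups, in which the low 8 h values come from the rule. Their 8 h ratios differed in size, 0.217 and 0.554. In AA cells the second Vcl probe set was at 1.01 and 1.08 untreated and 0.910 and 0.758 at 8 h, a change of -0.27 ± 0.15 (limma adjusted p = 0.879), and the first overlapped between these groups.

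Myl9, a regulatory light chain of non-muscle and smooth muscle myosin, read 0.697 and 0.849 before treatment, 0.625 and 0.747 after 4 h, then 0.374 and 0.300 after 8 h in the SS line. In the AA line it stayed between 1.03 and 1.41 on all 6 arrays. Amotl2, an angiomotin that binds and restrains YAP, read 1.63 and 1.51, then 1.28 and 1.30, then 0.633 and 0.813 in SS cells. Its AA values lay between 1.53 and 1.83 with overlapping groups.

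**Figure D2:**
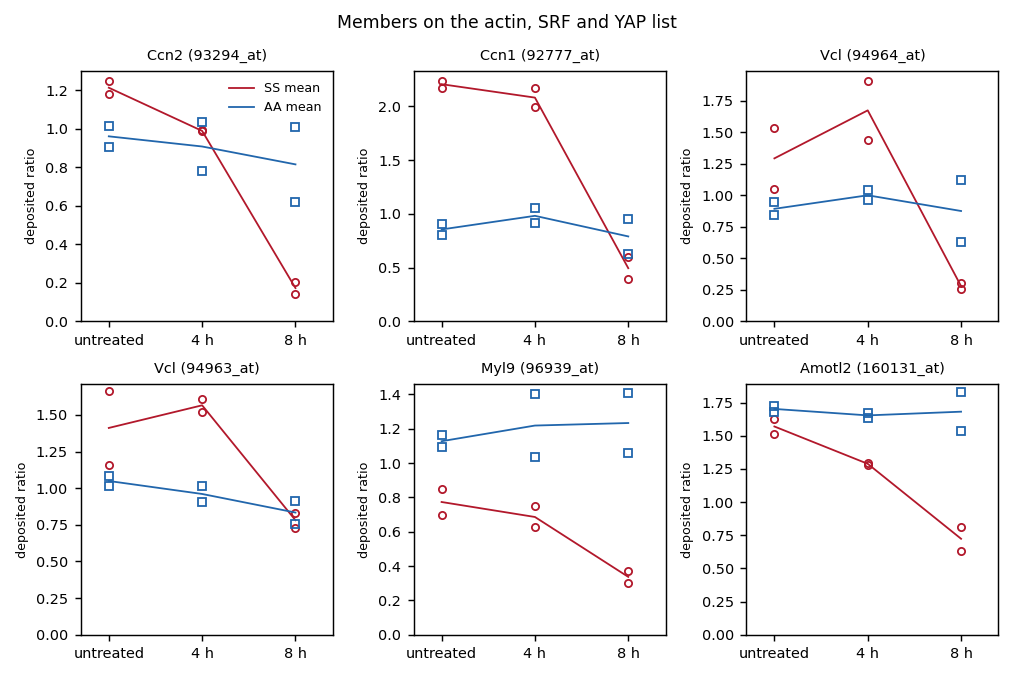
Deposited ratio of the 6 member probe sets on the actin, SRF and YAP list in untreated cells and at 4 h and 8 h of AP20187 (circles: SS arrays; squares: AA arrays; lines: group means, n = 2). SS values at 8 h lie below the untreated ones by the rule that chose them; the AA arrays of Ccn2, Ccn1, Myl9 and Amotl2 overlap between untreated cells and 8 h.

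Receptors for growth factors and cytokines were the second list with a high share, 10 of 80 eligible probe sets (12.5%), with another 14 already low at 4 h. They were Pdgfra, Ddr1, Lifr with 2 probe sets, Tgfbr3, Il1r1, F2r, Ptch1, Kdr and Acvr1. Ddr1, a receptor tyrosine kinase for collagen, had the tightest arrays: 3.32 and 3.20 in untreated SS cells, 3.54 and 3.81 at 4 h and 1.28 and 1.52 at 8 h. The 4 h values were the highest and the 8 h values the lowest. In AA cells Ddr1 read 1.69 and 1.69 before treatment, 2.06 and 1.94 after 4 h, then 1.81 and 1.71 after 8 h, where the change was 0.05 ± 0.17 (limma adjusted p = 0.969).

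Pdgfra, the PDGF receptor that marks fibroblasts, read 1.71 and 0.739 before treatment, 1.48 and 1.34 after 4 h, then 0.545 and 0.261 after 8 h in SS cells. It was the 1 member among the 19 fibroblast marker probe sets, and its untreated arrays disagreed by more than its 4 h arrays. The gene's other probe set was already low at 4 h, with 2.27 and 3.37 before treatment, 0.850 and 0.834 after 4 h, then 1.20 and 0.936 after 8 h. Il1r1, the signalling receptor for interleukin 1, read 3.80 and 2.99, then 3.03 and 2.53, then 1.91 and 1.31, so that its 4 h arrays overlapped the untreated ones. Tgfbr3 (betaglycan), F2r (the thrombin receptor), Ptch1 (the Hedgehog receptor), Acvr1 (a type I BMP receptor) and Lifr (which transmits LIF signals) had 8 h ratios from 0.433 to 0.597. Lifr also had 3 probe sets that were not members, with 8 h ratios of 0.427, 0.843 and 1.001. Kdr, the VEGF receptor of endothelial cells, read 0.639 and 0.731 untreated and 0.373 and 0.396 at 8 h; it was the 1 member among 6 endothelial marker probe sets.

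Secreted signals gave 7 of 66 eligible probe sets (10.6%), with 18 more already low at 4 h. Tgfb2, a TGF-beta ligand, read 1.66 and 1.97 in untreated SS cells, 1.95 and 2.36 at 4 h and 0.420 and 0.570 at 8 h. Its 8 h mean was 0.272 of the untreated mean while its 4 h values were not below the untreated range. In AA cells it read 1.09 and 1.07 before treatment, 0.844 and 0.873 after 4 h, then 0.986 and 0.983 after 8 h. Both treated AA groups were below the untreated arrays by a small amount, and neither change passed (at 8 h -0.11 ± 0.13, limma adjusted p = 0.909). Fgf7, the keratinocyte growth factor made by stromal cells, was at 3.26 and 3.30, then 3.35 and 3.17, then 1.61 and 1.11 in SS cells. Pdgfb read 1.48 and 0.878, then 1.96 and 1.92, then 0.579 and 0.358. Wnt4 never left the floor on the 12 tunicamycin arrays and spread widely on the SS arrays, with 6.67 and 15.4 untreated.

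The other 2 secreted genes, Cxcl1 and Il6, stood above their untreated level at 4 h. They are described with Tnfaip3, Ptgs2 and Nfkbiz, which were picked for the same order of values and so say nothing of inflammatory genes in general. Members of related function such as Vcam1, Il1r1 and Selp had 4 h ratios of 0.959, 0.819 and 0.806. Tnfaip3 encodes A20, an NF-kappaB target that inhibits the same pathway. Its SS ratios were 4.16 and 4.58 before treatment, 9.87 and 9.75 after 4 h, then 1.69 and 0.312 after 8 h. The 4 h mean was 2.25 times and the 8 h mean 0.229 times the untreated mean, and no groups overlapped.

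Cxcl1, a chemokine that attracts neutrophils, gave the same order on both of its probe sets. Both are members, so their low 8 h values come from the rule. One read 9.13 and 10.1 before treatment, 13.5 and 15.6 after 4 h, then 3.53 and 4.32 after 8 h. The other read 7.27 and 9.21, then 13.7 and 15.6, then 3.15 and 3.82. In the AA line neither probe set went outside 1.15 to 2.48 on any of the 6 arrays.

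Il6, the cytokine interleukin 6, read 7.51 and 8.70 before treatment, 13.4 and 12.4 after 4 h, then 3.56 and 5.48 after 8 h in SS cells. Ptgs2, the inducible cyclooxygenase, read 2.38 and 1.46, then 2.88 and 3.08, then 0.997 and 1.01. Nfkbiz, a nuclear IkappaB protein needed for some secondary NF-kappaB targets, read 2.16 and 1.93, then 3.40 and 2.63, then 0.939 and 0.377. On these 3 probe sets the 4 h arrays were the highest and the 8 h arrays the lowest. A second Nfkbiz probe set, not a member, read 0.993 and 0.550, then 1.58 and 1.39, then 0.674 and 0.761, so it was also highest at 4 h but overlapped the untreated arrays at 8 h. In AA cells the 8 h ratio was 0.831 for Nfkbiz, 0.847 for Ptgs2 and 1.0 for Il6, with overlapping untreated and 8 h arrays in each. At 4 h Il6 read 0.50 and 1.13 in AA cells, under its untreated 1.87 and 3.19. Il6 and Tnfaip3 were each at the floor on 9 of the 12 tunicamycin arrays and could not be tested there.

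**Figure D3:**
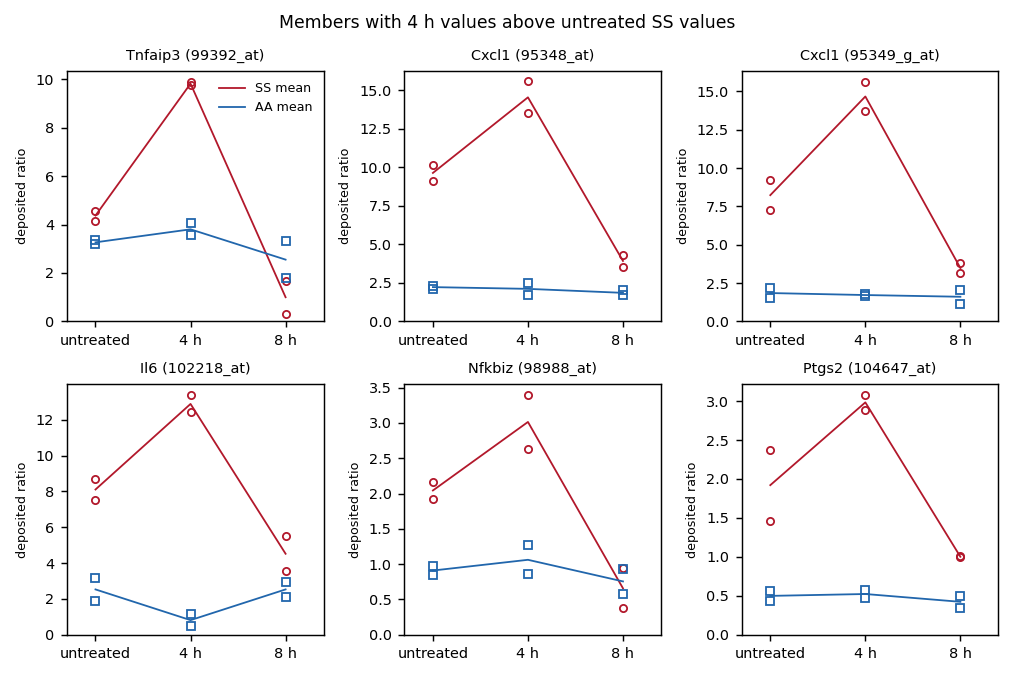
Deposited ratio of 6 member probe sets (Tnfaip3, Cxcl1 with 2, Il6, Nfkbiz and Ptgs2) by time of AP20187 (circles: SS arrays; squares: AA arrays; lines: group means, n = 2). In each panel the 4 h SS arrays are the highest and the 8 h SS arrays the lowest of the SS line; the panels were chosen after the values were seen.

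Cd68, a macrophage lysosomal protein, had the largest 4 h ratio, from 0.380 and 0.450 to 3.87 and 4.31, with 0.173 and 0.293 at 8 h. It was the 1 member among 10 leukocyte marker probe sets, and was at the floor on all 12 tunicamycin arrays. The 10 leukocyte ratios summed to 8.65 and 8.84 before treatment, 10.3 and 10.9 after 4 h, then 6.10 and 9.72 after 8 h. The gene's other eligible probe set did not share this: it read 0.997 and 0.796 before treatment, 0.723 and 0.613 after 4 h, then 0.709 and 0.664 after 8 h. Lpl, lipoprotein lipase, had a 4 h ratio of 3.23 that came from 1 array, at 14.7 against 2.61 on the other. None of the epithelial or smooth muscle markers was a member; the part of other cell types was not tested.

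The remaining lists were near or under the overall share of 2.7%, apart from 4. The sterol and fatty acid list had 2 members of 35 (5.71%), with 10 more already low at 4 h, integrins and adhesion 3 of 60 (5%), immediate early transcription factors 2 of 41 (4.88%) and extracellular matrix 3 of 76 (3.95%). Of the matrix list 25 of the 76 were already low at 4 h, more than the 3 members. Jun, a subunit of the AP-1 factor, read 2.08 and 2.77 before treatment, 2.22 and 2.80 after 4 h, then 0.796 and 0.698 after 8 h in SS cells. Idi1, the isopentenyl diphosphate isomerase of sterol synthesis, read 2.30 and 2.42, then 3.01 and 3.26, then 1.14 and 1.30. Both genes had 8 h arrays well apart from the rest.

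Other members on these lists were Id3, an inhibitor of helix-loop-helix factors, Hsd17b7, a cholesterol synthesis enzyme, Cd47, Itga4 and Vcam1 for adhesion, and Col5a1, Loxl1 and Timp3 for the matrix, with 8 h ratios between 0.472 and 0.584. Other probe sets of Cd47, Itga4 and Vcam1 read 0.755, 1.34, and 0.614 and 0.870, and that of Col5a1 was at 0.478 but already low at 4 h. The kinase and adaptor list had Irs2 and Mapk8 of 103, and 1 member each came from the lists of interferon response (Ifi204 of 38), ribosome biogenesis (Polr1d of 43), mitosis (Ube2c of 54), DNA replication (Rrm1 of 59) and respiratory chain (Atp5d of 71). For some of these genes other eligible probe sets did not show a low 8 h value: the 8 h ratio was 1.47 for Mapk8, 1.11 for Rrm1, 0.987 and 1.32 for Polr1d, 0.733 and 0.965 for Ifi204, and 0.895 to 0.928 over 4 probe sets for Atp5d. No member was on the integrated stress response list (0 of 36), the ER chaperone list (0 of 32) or the histone list (0 of 43). The 16 lists held 797 genes and together named 40 of the 315 member probe sets, for 37 genes, so most members lay on none.

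The lowest 8 h ratio belonged to Cpxm1, a carboxypeptidase-like secreted protein, with 7.52 and 17.3 before treatment, 12.6 and 10.8 after 4 h, then 1.73 and 0.975 after 8 h in SS cells. Its AA values lay between 1.20 and 2.16, and all 12 tunicamycin arrays had it at the floor. After Ccn2, B3galt1, Iqgap2, Vcl, Grik1, Cga, Ccn1 and Tnfaip3 followed, then Gfap, Ambra1 and Agr2. B3galt1 and Gfap show how scattered some of these are, with 14.7 and 7.56 for untreated B3galt1 and 2.34 and 1.12 for untreated Gfap. Other eligible probe sets gave 8 h ratios of 0.908 for Gfap, 1.13 for Agr2 and 1.57 for Ambra1, and 0.243 for Cga.

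A further readout was the set of other probe sets for the same genes, which the rule had not chosen. Of the member genes 99 had 129 such eligible probe sets. Their 8 h mean was below the untreated mean in 86 (66.7%), against 46.2% of all eligible probe sets, and both 8 h arrays were below both untreated ones in 48 (37.2%), against 22.6%. The median 8 h ratio was 0.895 for them and 1.04 for the eligible probe sets. They come from the same SS arrays as the rule and measure the same transcripts, so this is a description and not independent evidence.

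In the AA line no member passed limma's test after AP20187. At 4 h 0 of 315 members passed, as did 0% of the 12410 probe sets tested, and at 8 h again 0 of 315 and 0%. At an unadjusted p under 0.05, 11 members were lower and 3 higher at 4 h, against 297 and 149 of the 12410 probe sets. At 8 h 6 members were lower and 18 higher, against 219 and 467 of all probe sets. The fit of all 24 arrays, quantile normalization and every other setting tried also called 0 members at both times. With 2 arrays a group and 3 residual degrees of freedom, this does not show that the members were unaffected.

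The AA arrays were also compared by whether the groups overlapped. At 4 h both treated arrays were below both untreated ones in 62 of 315 members (19.7%, against 15.1% of all probe sets) and above in 44 (14.0%, against 16.1%). At 8 h they were below in 39 (12.4%, against 16.7%) and above in 65 (20.6%, against 17.3%). The median log2 ratio of the members was -0.07 at 4 h and 0.06 at 8 h. Both AA comparisons use the same untreated arrays. A ratio of at most 0.6 at 8 h was found in 23 members (7.3%) and in 4.3% of the eligible probe sets.

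The same rule applied to the AA arrays chose 163 of 12086 probe sets (1.35%). Shared with the members were 8, which is 2.54% of the members and 4.91% of the AA set: Sfpq, A2m, Polr1d, C1ra, Mark4, Hoxa4, Adcyap1r1 and 1 probe set with no symbol. C1ra, a complement protease, had the clearest values. It read 1.19 and 1.67 untreated and 0.630 and 0.812 at 8 h in SS cells, and 0.598 and 0.520 untreated and 0.271 and 0.398 at 8 h in AA cells. The second Sfpq probe set went the other way in AA cells, with an 8 h ratio of 2.44.

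Tunicamycin was the second stimulus, given to lines without the transgene. In wild-type cells 0 of the 135 members tested passed limma, against 0.839% of 7387 probe sets. The smallest limma adjusted p was 0.0719, for Myl9. At an unadjusted p under 0.05, 12 members were lower and 5 higher, against 333 and 457 of the 7387 probe sets. The fit of all 24 arrays, whose spread also comes from the SS arrays, called 4 members lower, of 207 probe sets called in all. Without overlap, 41 of the 163 members with a value were lower (25.2%, against 18.2%) and 22 higher (13.5%, against 21.7%), and the members' median log2 ratio was -0.11 against 0.02.

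In ATF4-/- cells 0 of 135 members passed limma, against 0.42%, and the smallest limma adjusted p was 0.125, for Arf3. At an unadjusted p under 0.05, 5 members were lower and 2 higher, against 245 and 396 of the 7387 probe sets. The fit of all 24 arrays called 2 members lower, of 85 probe sets called in all. Without overlap 37 of 164 were lower (22.6%, against 21.4%) and 27 higher (16.5%, against 24.4%). In PERK-/- cells 0 of 135 passed, as did 0% of all. Here 1 member was lower and 7 higher at an unadjusted p under 0.05, against 253 and 274 of all probe sets. The fit of all 24 arrays called 0 members, of 17 probe sets called in all. Without overlap 17 of 163 were lower (10.4%, against 14.1%) and 22 higher (13.5%, against 15.3%). The share of lower members was thus above the background in wild-type cells and under it in PERK-/- cells. Tested directly, the response of ATF4-/- cells differed from that of wild-type cells in 0 of 135 members (0% of all) and that of PERK-/- cells in 0 of 135 (0% of all). At an unadjusted p under 0.05 the response was lower for 3 and higher for 6 members in ATF4-/- cells, against 212 and 151 probe sets. In PERK-/- cells it was lower for 1 and higher for 8 members, against 348 and 214 of all probe sets. For these differences the fit of all 24 arrays called 0 and 1 members, the 1 being Idi1, of 4 and 34 probe sets called in all.

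Some members with large changes under tunicamycin are given by value, since none passed. In wild-type cells other members had treated over untreated ratios of 0.136 (Neurod4), 0.137 (Sirt1) and 0.223 (Tsks). Ratios on the high side were 3.90 (Lifr), 3.46 (Il12rb1) and 20.5 (Pitpnc1, with low untreated values of 0.0848 and 0.0132). Myl9 read 3.82 and 3.82 in untreated wild-type cells and 1.37 and 1.55 in treated ones, a log2 change of -1.25 ± 0.26 (limma adjusted p = 0.0719). In ATF4-/- cells it read 1.63 and 2.996 untreated and 0.678 and 0.967 treated (-1.22 ± 0.26, limma adjusted p = 0.126). In PERK-/- cells it was low in both states, at 0.481 and 0.394 untreated and 0.477 and 0.380 treated.

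In wild-type cells Idi1 read 0.618 and 0.352 before and 0.0710 and 0.0452 after treatment, and 0.368 and 0.555 against 0.141 and 0.129 in ATF4-/- cells. In PERK-/- cells its values were 0.548 and 0.937 untreated and 0.797 and 1.32 treated, which overlap. Its change in wild-type cells was -1.24 ± 0.30 (limma adjusted p = 0.114). Arf3, a small GTPase of the Golgi, read 2.03 and 2.04 in untreated and 0.962 and 0.654 in treated ATF4-/- cells, while its wild-type values lay between 1.78 and 2.11. Cd47, the receptor that signals self to phagocytes, was on the high side, with 0.554 and 0.287 before and 1.03 and 1.68 after treatment of wild-type cells (limma adjusted p = 0.223).

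**Figure D4:**
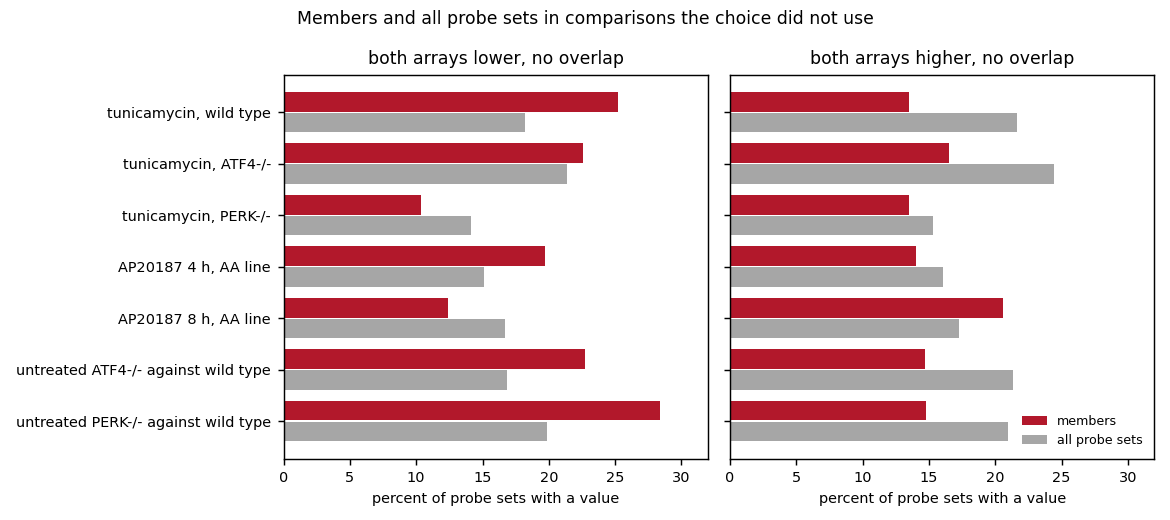
Percent of the members (red) and of all probe sets (grey) with a value whose treated arrays, or whose arrays of the knockout line, both lay below (left) or both above (right) the arrays they are compared with. The lower share of members is 25.2% against 18.2% under tunicamycin in wild-type cells and 28.4% against 19.9% in untreated PERK-/- cells; limma called members only in the last.

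The untreated lines were compared because the SS line itself was made in PERK-/- cells. In untreated ATF4-/- against wild-type cells 0 of 135 members passed limma, against 0.0948% of all. At an unadjusted p under 0.05, 12 members were lower and 3 higher, against 248 and 274 of the 7387 probe sets. The fit of all 24 arrays called 0 members, of 64 probe sets called in all. Without overlap 37 of 163 were lower (22.7%, against 16.9%) and 24 higher (14.7%, against 21.4%). In untreated PERK-/- against wild-type cells 8 of 135 members were lower (5.93%, against 1.29% of all) and 0 higher (against 0.352%). Without overlap 46 of 162 were lower (28.4%, against 19.9%) and 24 higher (14.8%, against 20.9%). The members' median log2 difference was -0.17 against 0.02. All these comparisons, and that of tunicamycin in wild-type cells, share the untreated wild-type arrays.

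The 8 were Myl9, Col5a1, Sec23a, Ggcx, Phldb2, Ptgs2, Timp3 and 1 probe set with several symbols. Myl9 was at 3.82 on both untreated wild-type arrays and at 0.481 and 0.394 on the PERK-/- arrays, a difference of -2.57 ± 0.26 (limma adjusted p = 0.00446). Col5a1, a chain of the type V collagen that starts fibrils, read 2.00 and 1.24 in wild-type and 0.292 and 0.315 in PERK-/- cells (-1.73 ± 0.19, limma adjusted p = 0.00500). In ATF4-/- cells Col5a1 was at 1.63 and 1.83, within the wild-type range. Sec23a, a coat protein of the vesicles that leave the ER, read 1.40 and 1.19 against 0.318 and 0.227 (-1.57 ± 0.23, limma adjusted p = 0.0156).

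Ggcx, the vitamin K-dependent carboxylase of the ER, read 1.21 and 1.76 in wild-type and 0.361 and 0.288 in PERK-/- cells. Ptgs2 read 1.84 and 1.004 against 0.208 and 0.0754, and 1.77 and 2.28 in ATF4-/- cells. Phldb2, which anchors microtubules at the cell cortex, read 1.58 and 0.832 against 0.265 and 0.258. Timp3, an inhibitor of matrix metalloproteinases, read 0.893 and 0.840 against 0.0510 and 0.204. For these 4 the limma adjusted p was between 0.0246 and 0.0369.

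Leaving out any 1 of the 4 untreated arrays compared left 2 to 4 members called: 3 without the first wild-type array, of which 1 was higher, 4 without the second, 2 without the first PERK-/- array and 3 without the second. Myl9 and Col5a1 passed in each of these fits, and Sec23a, Ggcx, Ptgs2 and Timp3 in none. Other probe sets of Col5a1 and Sec23a, not members, were also lower in untreated PERK-/- cells, with 0.657 and 0.739 against 1.94 and 1.89 for Col5a1 (-1.20 ± 0.17, limma adjusted p = 0.0141) and 0.263 and 0.307 against 0.946 and 1.09 for Sec23a (-1.25 ± 0.16, limma adjusted p = 0.00849). The lines also differ in their history, of which the labels say nothing, so loss of PERK and the identity of the line cannot be told apart.

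Ccn2 was outside this test because of 1 floor value on the tunicamycin arrays. It read 1.71 and 1.30 in untreated wild-type, 2.00 and 2.35 in untreated ATF4-/- and 0.0596 and 0.0460 in untreated PERK-/- cells. Treated PERK-/- cells read 0.0127 and the floor value of 0.01. Its PERK-/- values were thus far under those of both other lines. When probe sets at the floor on up to 6 of the 12 arrays were allowed, the untreated difference was -2.54 ± 0.17 (limma adjusted p = 0.00264). In that fit 7 members were called, all lower, of 92 probe sets called in all (71 lower, 21 higher). Myl9, Col5a1, Sec23a and the probe set with several symbols kept their call, and Ggcx, Phldb2, Ptgs2 and Timp3 lost theirs. Ccn2, Itgae and 1 further probe set, at the floor on 1, 5 and 3 of the 12 arrays, came in.

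The other actin-related members leaned the same way without passing. Ccn1 read 1.71 and 1.26 in wild-type and 0.724 and 0.363 in PERK-/- cells (limma adjusted p = 0.156). The first Vcl probe set read 2.29 and 1.55 against 0.696 and 0.381 (limma adjusted p = 0.0875), and Amotl2 1.19 and 0.712 against 0.337 and 0.354. None of their PERK-/- and wild-type arrays overlapped. Of the whole actin, SRF and YAP list 5 of 37 tested probe sets were lower in untreated PERK-/- cells and 0 higher. The matrix list gave 19 of 57 lower and 0 higher, secreted signals 6 of 38 and 0, and receptors 2 of 50 and 0, where 1.29% of all probe sets were lower. Among these calls only Myl9, Col5a1 and Timp3 were members, so the list counts mostly describe other probe sets. The ER chaperone list, which holds no member, gave 8 of 29 lower and 0 higher. In the tunicamycin and AA comparisons the actin and receptor lists gave 0 in either direction.

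**Figure D5:**
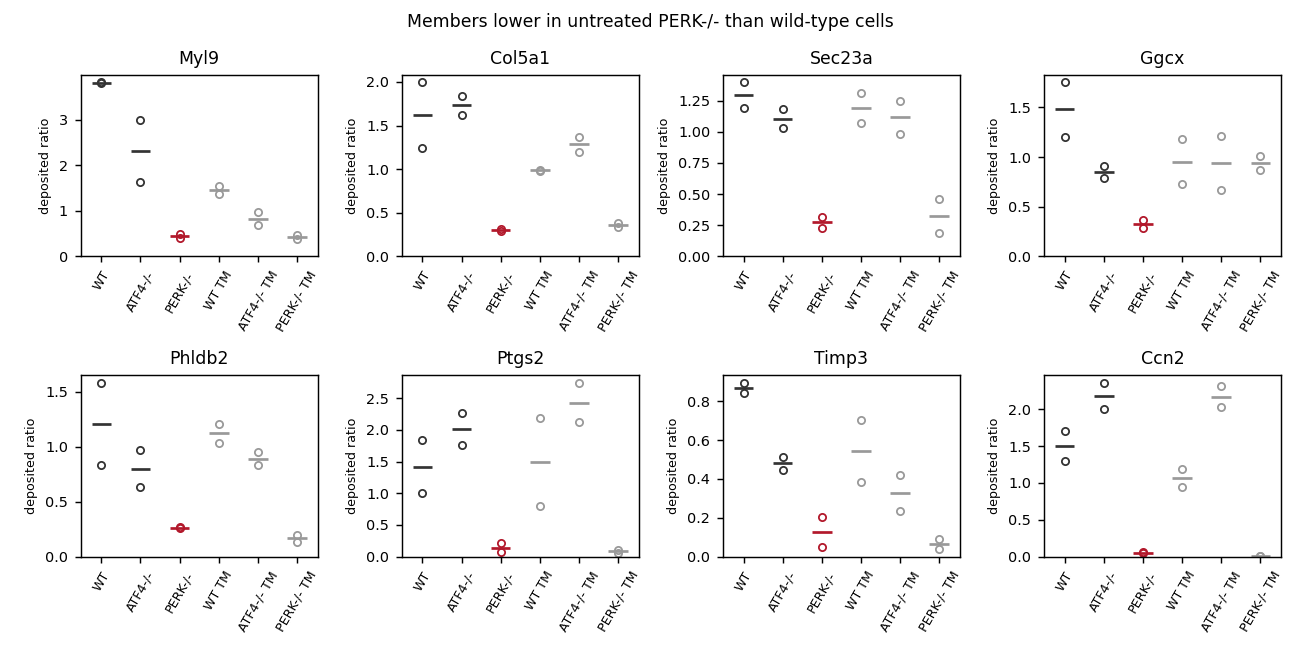
Deposited ratio on the 12 tunicamycin arrays of the 7 single-gene members called lower by limma in untreated PERK-/- against wild-type cells, and of Ccn2, called only when probe sets with some floor values were allowed (circles: arrays; bars: means, n = 2; red: untreated PERK-/-; grey: tunicamycin, TM). Both untreated PERK-/- arrays lie below both untreated wild-type arrays in all 8 panels.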

How the data were processed

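The deposited values are a linear ratio per probe set and array, read from the values as relative to the probe set's own median (1 within 0.01 for 91.5% of 12488 probe sets). How the authors scaled, centred and summarised the arrays is not given in the sources used here. Of the probe sets 66 were controls and left out. Gene names came from the platform annotation (10833 probe sets with 1 symbol, 396 with several, 1193 with none, 10817 matched by Entrez ID to RefSeq).

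Tests used limma 3.58.1 in R 4.3.3 (with data.table at version 1.17.8) on log2(ratio + 0.247). The pseudocount was set at the table's median value divided by 4. This scale understates changes of low values. The 12 tunicamycin arrays (6 groups, 6 residual degrees of freedom) and the 6 AA arrays (3 groups, 3 residual degrees of freedom) were fitted apart, so that no test used an SS array. Probe sets at the floor on any array fitted were left out, which kept 7387 and 12410 probe sets, with 135 and 315 members. Tests were two-sided with a trended prior, and p-values were adjusted by Benjamini-Hochberg over all probe sets tested at a threshold of 0.05. The procedure was tested on simulated data with 200 probe sets changed by 2 on the log2 scale. It recovered 152 of them with 8 false calls for tunicamycin in wild-type cells (7387 probe sets), and 104 with 7 false calls for AP20187 at 4 h in the AA line (12410). The members' median 8 h ratio in SS cells, 0.494, is a smaller change than the simulated one, and their values were less repeatable. Recovery of such changes in the members was not simulated. Overlap was counted on probe sets never at the floor in the groups compared. Alternatives changed the fit, pseudocount, floor filter, normalization, replicate block, single arrays and member rule. Replicate numbers were not treated as pairs, since their deviations correlated with r of only 0.029 to 0.156.

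The members and the gene lists were chosen with earlier results of these data known. The text names the 12 lowest members, up to 6 called members per comparison and direction, up to 4 per list and threshold neighbours. Of the largest changes without overlap and the genes with several member probe sets, only some are named. The remaining list members, Cd68, Lpl, Nfkbiz and the 8 probe sets shared with AA were named after their values were seen, and the CArG search and the use of the rule on AA arrays were added then.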

Additional observations from a re-analysis of the deposited data

Results flagged for a closer look

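Picked by value are 6 cases in which both arrays of a knockout line moved opposite to both wild-type arrays under tunicamycin. How often this occurred among all members or all probe sets was not counted. Over all probe sets both treated arrays were lower in 18.2% in wild-type cells. Both were higher in 24.4% in ATF4-/- and in 15.3% in PERK-/- cells. Dermatopontin (Dpt) had a treated over untreated ratio of 3.32 in PERK-/- cells against 0.723 in wild-type cells. Ggcx had 2.90 against 0.644, Col5a1 1.18 against 0.609 and Arf3 2.11 against 0.916 in the same lines. Nacc2 had 3.52 in ATF4-/- and 3.82 in PERK-/- cells against 0.617 in wild-type cells. None of these differences passed limma's interaction test.

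Both AA arrays at 8 h of AP20187 lay above both untreated AA arrays in 65 of the 315 members (20.6%, against 17.3% of all probe sets). The SS arrays of every member lay below theirs by the rule. Of the 65 members 4 are given here, and others had larger AA ratios, such as 6.46 for Rrm1. The ratio was 1.04 in AA against 0.430 in SS cells for Ddr1, 1.66 against 0.452 for Ifi204, 1.09 against 0.545 for Col5a1 and 2.00 against 0.568 for Abcc8. The SS values chose these members, and the difference was not tested.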

How the results depend on the processing

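With 2 arrays a group the precision is low, the signal over background is unknown, and none of the 7 genes named as called in untreated PERK-/- cells changed direction under any alternative. Scaling each SS array to the same median chose 384 probe sets, which include the 315 members, and an 8 h limit of 0.5 chose 161. Some settings also bring fewer arrays or more probe sets, and the cause of the changes in counts was not tested.

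Over all probe sets, the count called in wild-type cells under tunicamycin was 62, and it became 207 in the fit of all 24 arrays, 96 with 4 times the pseudocount, 40 after quantile normalization and 18 when probe sets at the floor on at most 6 arrays were kept. In ATF4-/- cells it was 31, and became 85, 57 (quantile) and 7 (floor). In PERK-/- cells it was 0 and became 17 in the fit of all 24. The difference of responses from wild type was 0 in both lines, and became 4 (ATF4-/-) and 34 (PERK-/-) in the fit of all 24, and 1 in PERK-/- with 4 times the pseudocount or with scaled arrays. Untreated ATF4-/- against wild type gave 7, then 64 in the fit of all 24, 13 (quantile) and 4 (floor), and untreated PERK-/- against wild type 121, then 368. The fit of all 24 called 4, 2 and 1 members in the first, second and PERK-/- difference comparisons and 18 members (17 lower, 1 higher) in untreated PERK-/- cells. The SS values that chose the members enter that fit, so its member counts are not independent of the rule. With 4 times the pseudocount 1 member was called in wild-type cells. The members' median log2 ratio in ATF4-/- cells moved from -0.06 to -0.14 with scaled arrays.

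A replicate block within each line called 1 probe set in wild-type cells, 0 in ATF4-/- cells, 0 in untreated ATF4-/- and 41 in untreated PERK-/- cells, with 5 members in the last. It changed no call of Myl9, Col5a1 or Ptgs2, and left Sec23a, Ggcx, Phldb2 and Timp3 short of the threshold.

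Leaving out each array in turn gave 3 to 48 calls in wild-type cells, 0 to 8 in ATF4-/- cells, 0 to 2 and 0 to 3 for the differences in ATF4-/- and PERK-/- cells, 0 to 6 in untreated ATF4-/- and 37 to 56 in untreated PERK-/- cells. Members called were 0 to 1 in untreated ATF4-/- and 2 to 4 in untreated PERK-/- cells, and 0 elsewhere.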
